A study of Saccharomyces cerevisiae with 6 samples.

Results

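The genes described here are THI4, THI6, THI20, THI80, THI7, THI73, SNZ1, SNO1 and PDX3. They are listed for the synthesis, uptake or activation of 2 vitamins in budding yeast, thiamine (vitamin B1) and vitamin B6. THI73 is listed as a putative permease only. These genes are 9 of 5656 that have an Affymetrix probe set listed for them alone, and each of the 9 has 1 such probe set. They were chosen by their role in these pathways and from earlier results of the same K4,79R against wild-type comparison, in which THI4, SNZ1, SNO1 and THI73 stood higher. Every difference between the groups given for them is therefore a description, including its adjusted p, and supports nothing further. All 9 passed the filter on dim probe sets, which left 5380 genes in the fit.

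Arrays came from 3 samples of a Saccharomyces cerevisiae mutant strain with histone H3 K4,79R, in which lysines 4 and 79 of histone H3 are arginine, and from 3 samples of the wild-type strain. Lysine 4 and lysine 79 are sites of methylation in wild-type chromatin, and an arginine there cannot take the same mark. All cells were grown in YPD, a rich glucose medium, and harvested at an OD600 between 0.5 and 0.7. The strain background, further alleles and any plasmid are not given in the sources used here. Nothing says that the samples of a group were separate cultures, so a p-value reflects only how these samples scatter, which could be technical scatter alone.

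Thiamine diphosphate is the cofactor of enzymes that cleave or form bonds next to a carbonyl group, among them pyruvate decarboxylase, transketolase and the pyruvate dehydrogenase complex. Yeast builds thiamine from a thiazole part and a pyrimidine part, joins them and adds phosphate, and it also imports the vitamin. Genes of this pathway are known to be repressed when thiamine is plentiful and induced when it is scarce, through the regulators Thi2, Thi3 and Pdc2. Pyridoxal phosphate, the active form of vitamin B6, serves transaminases, decarboxylases and many other enzymes of amino acid metabolism. Snz1 and Sno1 form the complex that makes it, and both genes are known to be induced as cells enter stationary phase or run short of amino acids.

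Signals are the authors' linear array intensities, with a median of 31.8 to 42.9 for the K4,79R arrays and 34.1 to 36.8 for wild type. K4,79R array 1 stood apart: its log2 values correlated at 0.975 and 0.979 with the other K4,79R arrays, which correlated at 0.988 with each other, as against 0.986 to 0.992 among those of the wild type. For actin, the ratio of 3′ to 5′ probe set signals, a measure of transcript integrity and labelling, was 1.00 on that array and 1.498 to 1.64 on the other 5. The corresponding ratio of SPT15 (YER148W) set other arrays apart, at 5.71, 2.79 and 3.35 on K4,79R arrays 1, 2 and 3 and 5.02 to 6.15 on wild-type arrays. The part of these ratios in the results was not tested, and values without K4,79R array 1 are given where they matter. Leaving it out raised the number of genes with a limma adjusted p under 0.05 from 229 of 5380 to 1123. The filter on dim probe sets was then applied anew to the other 5 arrays, so the genes tested can differ. A gene that passes only then shares this with many others. The histone H3 genes HHT1 and HHT2 are read together by every probe set for them, and these do not distinguish the mutant codons. The brightest of the 3 read 4290 ± 664 on K4,79R arrays and 4864 ± 682 on wild-type arrays (SD, n = 3 each), and the next 245 ± 95.5 on K4,79R arrays and 422 ± 12.2 on wild-type arrays (log2 -0.86, limma adjusted p = 0.142).

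The mRNA level of 4 of the 9 genes was higher in the mutant by the whole-array fit. THI4 was 3.63-fold higher in K4,79R cells, SNO1 2.76-fold, SNZ1 2.39-fold and THI73 1.73-fold. These folds are on the scale of log2(signal + 3.605), which makes changes look smaller where signals are low. The other 5 genes, THI6, PDX3, THI20, THI80 and THI7, had positive differences that did not pass an adjusted p under 0.05 in limma. Thus 4 of 9 were called higher, where 2.81% of all tested genes were, and none was called lower, where 1.45% of all tested genes were. No member was lower at an unadjusted p under 0.05 either, where 454 of the 5380 tested genes were. In 6 of the 9 all 3 K4,79R signals lay above all 3 wild-type signals, which was so for 16.7% of all tested genes. The median log2 difference was 0.54 over the 9 genes and 0.04 over all tested genes. Since the choice of the genes used this comparison, nothing is read from these shares.

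**Figure D1:**
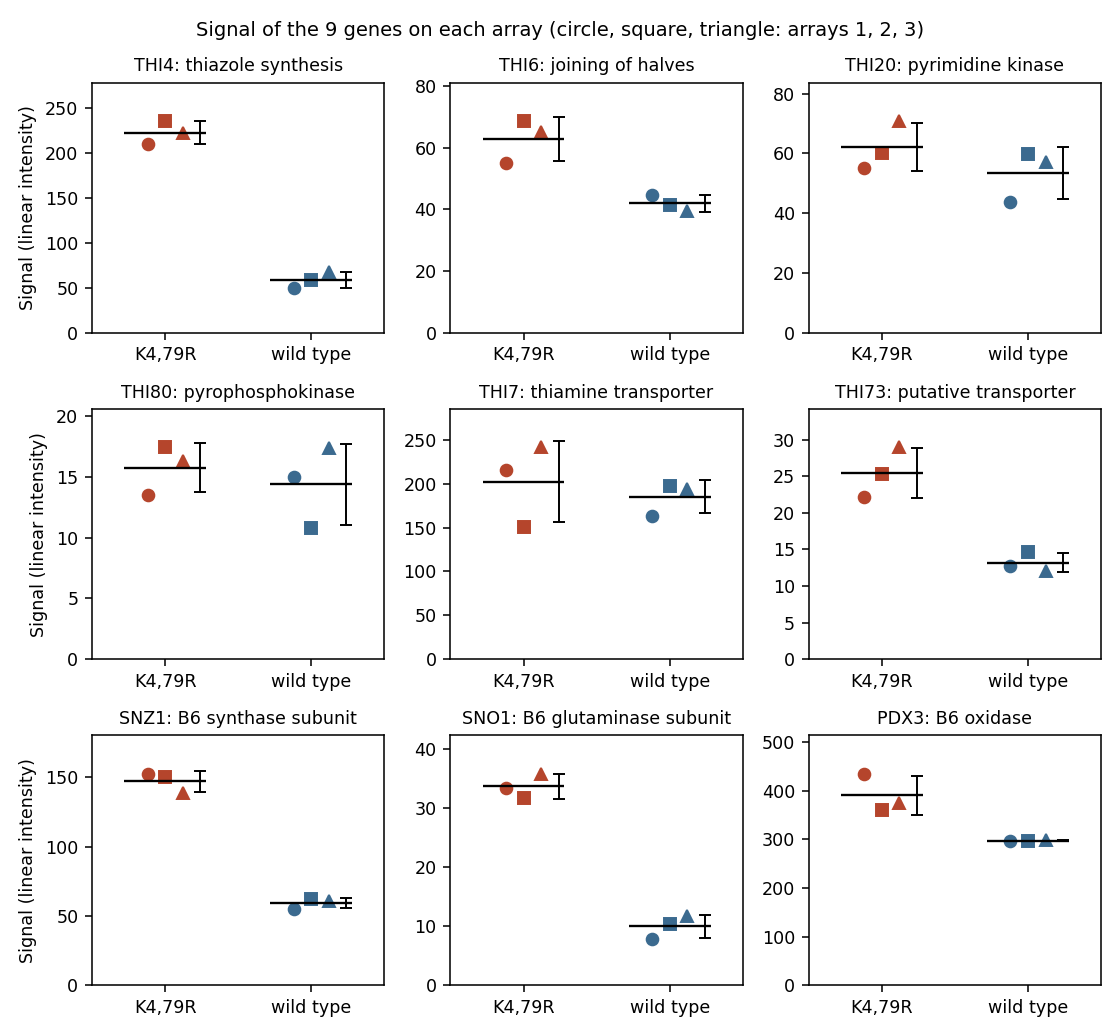
Signal (linear intensity, axis from 0) of the 9 genes on the 3 K4,79R arrays and the 3 wild-type arrays; circles, squares and triangles are arrays 1, 2 and 3, the horizontal line is the mean and the bar ± SD. The groups are separate for THI4, THI6, THI73, SNZ1, SNO1 and PDX3 and overlap for THI20, THI80 and THI7.

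In thiamine synthesis, THI4 (YGR144W) encodes the enzyme that makes the thiazole part and gives up a sulfur atom of its own cysteine to do so. Its signal was 209.6, 235.4 and 222.7 on K4,79R arrays 1, 2 and 3, against 50.1, 58.8 and 68.2 on wild-type arrays 1, 2 and 3. The lowest mutant value lay far above the highest wild-type value, so the groups did not overlap. The log2 difference was 1.86 ± 0.14 (SE), with a limma adjusted p of 0.00208, and it was the second largest positive difference of the 5380 tested genes. The K4,79R arrays were tightly grouped, with an SD of 0.08 on the log2 scale, against 0.21 for the wild-type arrays. Over all tested genes the median SD ran the other way, at 0.21 in the K4,79R group and 0.13 in the wild-type group.

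None of the 3 members for later steps of thiamine synthesis was called. THI6 (YPL214C), whose enzyme joins the thiazole and pyrimidine parts and also phosphorylates the thiazole, read 55.0, 68.6 and 65.0 on K4,79R arrays and 44.8, 41.6 and 39.4 on wild-type arrays. The groups were separate, but by a smaller step, 1.46-fold (log2 0.54 ± 0.14, limma adjusted p = 0.0798). Without K4,79R array 1, which held the lowest of the 3 mutant values, the log2 difference was 0.63 with an adjusted p of 0.0125. For THI20 (YOL055C), which encodes a kinase of the pyrimidine part that can also degrade thiamine, the signals were 55.1, 60.2 and 70.8 on K4,79R arrays and 43.6, 59.9 and 57.2 on wild-type arrays. These groups overlapped, with a log2 difference of 0.20 and a 95% interval of -0.18 to 0.59. THI80 (YOR143C), the gene of the pyrophosphokinase that turns thiamine into its cofactor form, gave low signals of 13.6, 17.5 and 16.4 on K4,79R arrays and 15, 10.8 and 17.4 on wild-type arrays. Its difference of 0.12 had a 95% interval of -0.30 to 0.54.

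The other genes of thiamine synthesis on the list were read with more difficulty, because 4 of them are near-identical copies. THI5, THI11, THI12 and THI13 encode the enzyme family that makes the pyrimidine part, and 1 probe set is listed for all 4, so its signal cannot be assigned to any one of them. It read 75.6, 125 and 111 on K4,79R arrays and 57.8, 54.0 and 68.9 on wild-type arrays. All 3 mutant values were above the wild-type values, K4,79R array 1 by the least. The log2 difference was 0.73 ± 0.20 and was not called in the fit over all 7420 probe sets (limma adjusted p = 0.103), in which 2.09% of probe sets were called higher. Within each array the log2 ratio of the THI4 signal to that of this probe set was 1.47, 0.92 and 1.01 in K4,79R cells and -0.21, 0.12 and -0.01 in wild-type cells. Ratios within arrays are given here and below on the signals without an offset, a choice made after the data were seen, so that a common factor on an array cancels. They too are descriptions, since the members were chosen on this comparison.

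PET18, whose protein resembles part of Thi20, read 30.0, 23.6 and 32.7 on K4,79R arrays and 16.4, 16.1 and 16.7 on wild-type arrays. Its groups were separate and its log2 difference of 0.68 ± 0.16 lay just outside the threshold (limma adjusted p = 0.0536). Without K4,79R array 1 it passed (limma adjusted p = 0.0279), although the difference was slightly smaller, at 0.65. PHO3, an acid phosphatase gene known to be repressed by thiamine, behaved differently. It read 1512, 563 and 1302 on K4,79R arrays against 1219, 1291 and 1046 on wild-type arrays, so K4,79R array 2 was the lowest of the 6 while arrays 1 and 3 were the highest. THI21 and THI22, relatives of THI20, had log2 differences of -0.04 and 0.14. None of these 4 genes was called in limma, and 1 of them, PET18, was higher at an unadjusted p under 0.05, as were 742 of the 5380 tested genes.

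Of the 2 genes listed under transport among the 9, THI73 was called and THI7 was not. THI7 (YLR237W), the plasma membrane transporter through which yeast takes up thiamine, read 215, 151 and 242 on K4,79R arrays and 163, 197 and 195 on wild-type arrays. The mutant arrays held both the highest values and the lowest one, and array 2 was that lowest, as it was for PHO3. The log2 difference was 0.11, with a 95% interval of -0.31 to 0.52, and its sign turned to -0.03 without K4,79R array 3.

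THI73 (YLR004C) encodes a putative permease of the plasma membrane, and whether it carries thiamine was not tested. Its signals were low, 22.1, 25.3 and 29.0 on K4,79R arrays and 12.8, 14.7 and 12.1 on wild-type arrays, yet the groups did not overlap. The log2 difference of 0.79 ± 0.16 had a limma adjusted p of 0.0347, and its rank was 124 of 5380. This call was the least stable of the 4. It was lost when any array other than K4,79R array 1 was left out: the log2 difference was then 0.79 or 0.70 without K4,79R array 2 or 3, and 0.77, 0.85 or 0.74 without wild-type array 1, 2 or 3, with adjusted p between 0.0946 and 0.149. Without K4,79R array 1 it was 0.87 (adjusted p = 0.00843).

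The list held 3 further transport genes, none of them called in limma or past an unadjusted p of 0.05. NRT1, which encodes a nicotinamide riboside importer closely related to Thi7, had a log2 difference of 0.07, and THI72, another relative, -0.02, from a probe set named for shared probes. TPC1, the gene of the mitochondrial carrier for thiamine diphosphate, stood at -0.08. The 3 regulators of the pathway were likewise uncalled and had no unadjusted p under 0.05, with THI2 at 0.19, PDC2 at 0.06 and THI3 at -0.23. For THI3 all 3 K4,79R signals, 73.8, 79.3 and 68.8, lay below the wild-type signals of 87.8, 85.4 and 88.9 (limma adjusted p = 0.298). THI2 passed the threshold when K4,79R array 1 was left out (log2 0.54, limma adjusted p = 0.0394). That array read 6.64 where the other K4,79R arrays read 19.5 and 15.9, against 10 to 11.6 on the wild-type arrays.

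**Figure D2:**
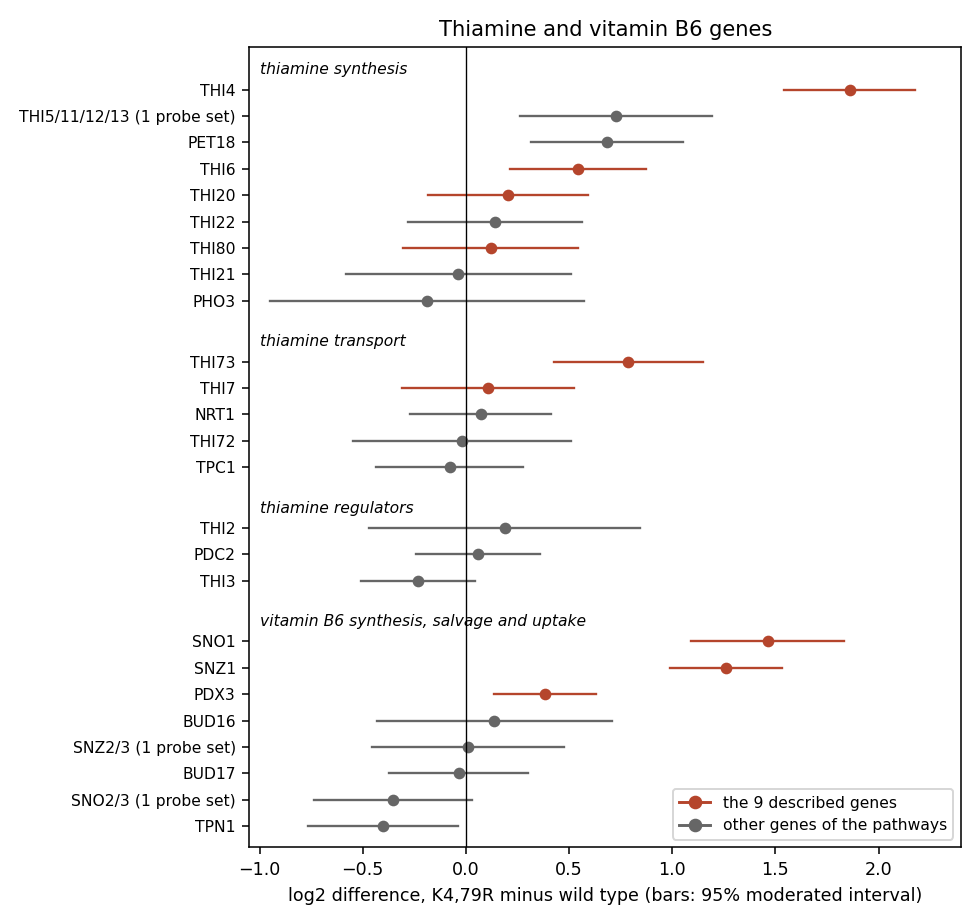
Log2 difference, K4,79R minus wild type, with 95% moderated intervals from limma for genes of thiamine synthesis, transport and regulation and of vitamin B6 synthesis, salvage and uptake; the 9 described genes are in red and other pathway genes, 3 of them probe sets shared by several genes, in grey. THI4 at 1.86, SNO1 at 1.46, SNZ1 at 1.26 and THI73 at 0.79 lie farthest to the right.

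In vitamin B6 synthesis, the divergent gene pair SNZ1 and SNO1 were both called higher. SNZ1 (YMR096W) encodes the subunit that assembles pyridoxal phosphate, and it read 152.6, 149.9 and 138 on K4,79R arrays and 55.0, 62.1 and 60.9 on wild-type arrays. Every mutant value was far above every wild-type value. The log2 difference was 1.26 ± 0.12 (limma adjusted p = 0.00361), rank 23 of 5380. SNO1 (YMR095C) encodes the glutaminase subunit, which supplies ammonia to Snz1. It read 33.4, 31.7 and 35.8 on K4,79R arrays and 7.90, 10.3 and 11.8 on wild-type arrays, so the groups were far apart, although the wild-type signals were low. The log2 difference was 1.46 ± 0.16 (limma adjusted p = 0.00467), rank 6 of 5380. On the linear scale the ratio of the mean signals was 3.37 for SNO1 and 2.48 for SNZ1. The 95% intervals of their log2 differences, 1.09 to 1.83 for SNO1 and 0.99 to 1.53 for SNZ1, overlapped. Within single arrays the log2 ratio of SNO1 to SNZ1 signals was -2.13 ± 0.16 in K4,79R cells and -2.59 ± 0.22 in wild-type cells (SD, n = 3 each). The shift of 0.46 exceeded these SDs and the ratios of the groups did not overlap. With the offset of 3.605 added the shift was 0.20 and the groups overlapped. The ratios were then -2.08, -2.12 and -1.85 in K4,79R cells and -2.35, -2.24 and -2.07 in wild-type cells.

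Yeast has further SNZ and SNO copies near chromosome ends, and these showed another picture. In the RefSeq gene order of assembly R64, SNO2, SNZ2 and THI12 lie next to each other, as do SNO3, SNZ3 and THI5, so that copies for both vitamins sit side by side. SNZ2 and SNZ3 share 1 probe set and SNO2 and SNO3 share another. The SNZ2 and SNZ3 probe set read 91.9, 134 and 142 on K4,79R arrays and 100.5, 119.9 and 142.4 on wild-type arrays. These ranges coincide almost fully, with a log2 difference of 0.01 and a 95% interval of -0.46 to 0.47, which does not reach the 1.26 of SNZ1. The SNO2 and SNO3 probe set read 43.9, 60.6 and 58.6 on K4,79R arrays and 71.9, 62.0 and 76.3 on wild-type arrays. Here the mutant arrays were all below the wild-type arrays, at a log2 difference of -0.35 (interval -0.73 to 0.03) that was not called (limma adjusted p = 0.265).

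Within each array the log2 ratio of SNZ1 to the SNZ2 and SNZ3 signal was 0.73, 0.16 and -0.03 in K4,79R cells and -0.87, -0.95 and -1.23 in wild-type cells. The ratio of SNO1 to the SNO2 and SNO3 signal was -0.39, -0.93 and -0.71 in K4,79R cells and -3.19, -2.59 and -2.69 in wild-type cells. Neither ratio overlapped between the groups, whose means differed by 1.3 and 2.14, or by 1.25 and 1.82 with the offset added. With 3 arrays a group an exact two-sided permutation test cannot go below 0.1, so none was run on these ratios.

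PDX3 (YBR035C) encodes the oxidase that turns other forms of the vitamin into pyridoxal phosphate. It read 435.5, 361 and 375 on K4,79R arrays and 297.3, 296.2 and 298.7 on wild-type arrays. The wild-type values were nearly equal, and all mutant values lay above them. The log2 difference of 0.38 ± 0.11 did not pass the threshold (limma adjusted p = 0.0898) but did so without K4,79R array 1, its highest mutant value, at 0.30 with an adjusted p of 0.0409. It was also sensitive to scaling, at 0.28 when arrays were set to a common median. The pyridoxal kinase genes BUD16 and BUD17 stood at 0.14 and -0.04. TPN1, the gene of the plasma membrane importer of vitamin B6, stood at -0.40 ± 0.16, with 141, 151 and 107 on K4,79R arrays, all below the 191, 184 and 152.5 on wild-type arrays (limma adjusted p = 0.191). Of the 3 B6 genes with a probe set of their own beside the members, none was called, and TPN1 was the one past an unadjusted p of 0.05. Of the 5380 tested genes 454 were lower at that p.

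**Figure D3:**
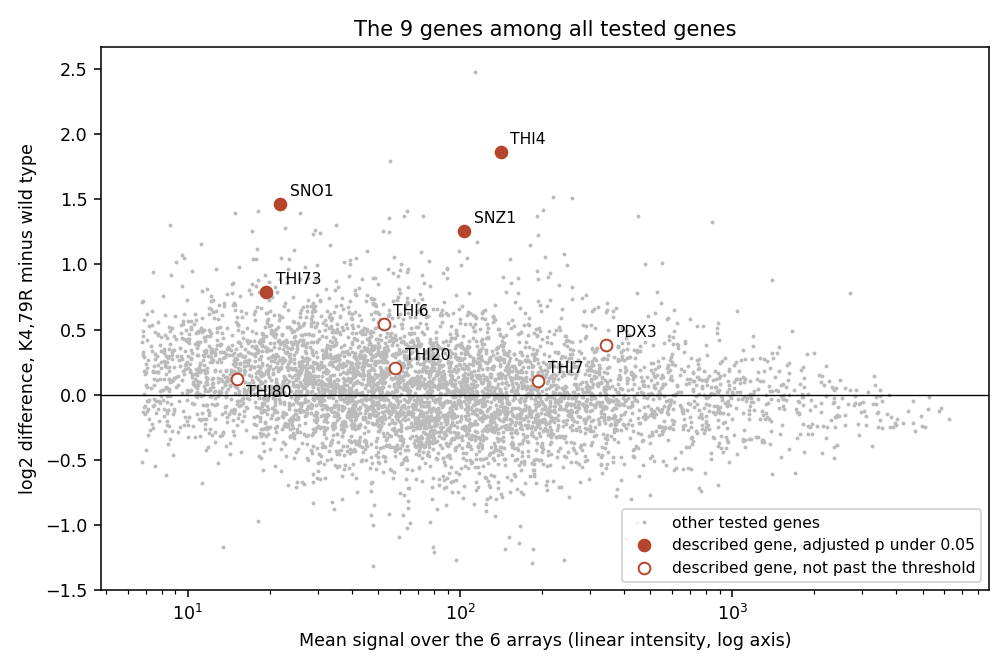
Log2 difference, K4,79R minus wild type, against the mean signal over the 6 arrays (log axis) for all tested genes (grey) with the 9 described genes in red; filled circles had an adjusted p under 0.05. THI4 has the second largest positive value, and THI80, THI7 and THI20 lie within the main cloud.

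Enzymes that use the cofactors were read from 2 lists. Of 10 genes for enzymes with thiamine diphosphate, 1 was called higher and none lower in limma, where 2.81% and 1.45% of all tested genes were, with a median log2 difference of 0.14. At an unadjusted p under 0.05, 2 of the 10 were higher and 1 lower, ILV2 at -0.31. Of all 5380 tested genes 742 were higher and 454 lower at that p. The called gene was PDC6, a minor pyruvate decarboxylase gene, with 97.7, 119 and 104.5 on K4,79R arrays and 41.0, 32.9 and 43.9 on wild-type arrays (log2 1.37 ± 0.15, limma adjusted p = 0.00467). PDC5, a pyruvate decarboxylase gene known to be induced by thiamine limitation, was picked out after its values were seen. It read 256, 284 and 332 on K4,79R arrays and 154, 185 and 211 on wild-type arrays, separate groups with a log2 difference of 0.66 ± 0.15 just outside the threshold (limma adjusted p = 0.0511). It passed without K4,79R array 1 (0.74, adjusted p = 0.0137), and with an offset of 16, quantile normalization or the constants divided out, at 0.62, 0.61 and 0.61. PDC5 was not called in any other alternative. These included the common median, the replicate block and each fit that left out another array. The 4 brightest uncalled genes of the list, PDC1, TKL1, PDA1 and PDB1, had log2 differences of 0.32, 0.23, 0.08 and -0.25.

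Of 33 listed genes for enzymes with pyridoxal phosphate, 2 were called higher and none lower in limma, against the same 2.81% and 1.45% over all tested genes, around a median of 0.08. The list does not hold every gene of this class. AGX1 and BNA3, for instance, are not on it and were called higher. Genes left out were not counted in either direction. At an unadjusted p under 0.05, 5 were higher and 4 lower, where 742 and 454 of all 5380 tested genes were. STR3, a cystathionine beta-lyase gene of sulfur amino acid metabolism, read 63.4, 65.8 and 60.5 on K4,79R arrays and 26.5, 22.7 and 34.2 on wild-type arrays (log2 1.10 ± 0.17, limma adjusted p = 0.0164). GAD1, the glutamate decarboxylase gene, read 183, 211 and 218 on K4,79R arrays and 130, 143.5 and 143.2 on wild-type arrays (log2 0.54 ± 0.12, limma adjusted p = 0.0445). Both groups of arrays were separate in each gene. The call of GAD1 was lost when any array but K4,79R array 1 was left out, and that of STR3 when K4,79R array 2 or 3 or wild-type array 1 or 2 was. Both were lost with the replicate number as a block, and GAD1 also with a common median or without the intensity trend in limma. Of 17 alternatives GAD1 was called in 9 and STR3 in 12. The brightest uncalled genes, MET17, AAT2, ARO8 and CYS3, stood at 0.36, 0.14, 0.00 and 0.04.

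Over all 6 lists without the 9 genes, 56 of 64 genes were tested. Of these, 3 were called higher (PDC6, STR3 and GAD1) and none lower in limma, where 2.81% and 1.45% of all tested genes were. The median log2 difference of the 56 was 0.07. At an unadjusted p under 0.05, 8 were higher and 6 lower, and of all 5380 tested genes 742 were higher and 454 lower. In 8 of the 56 all K4,79R signals were above the wild-type signals and in 7 all were below. Over all tested genes the shares were 16.7% above and 12.2% below. Without K4,79R array 1 the count called higher was 12, and SHM1 and ALT1 were then called lower, at -0.39 and -0.52. Over the whole array that setting called 1123 genes in either direction, against 229 of 5380 with all arrays, so nothing is read from the count of 12. Without any one of the other arrays the count called higher was 1 or 2.

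**Figure D4:**
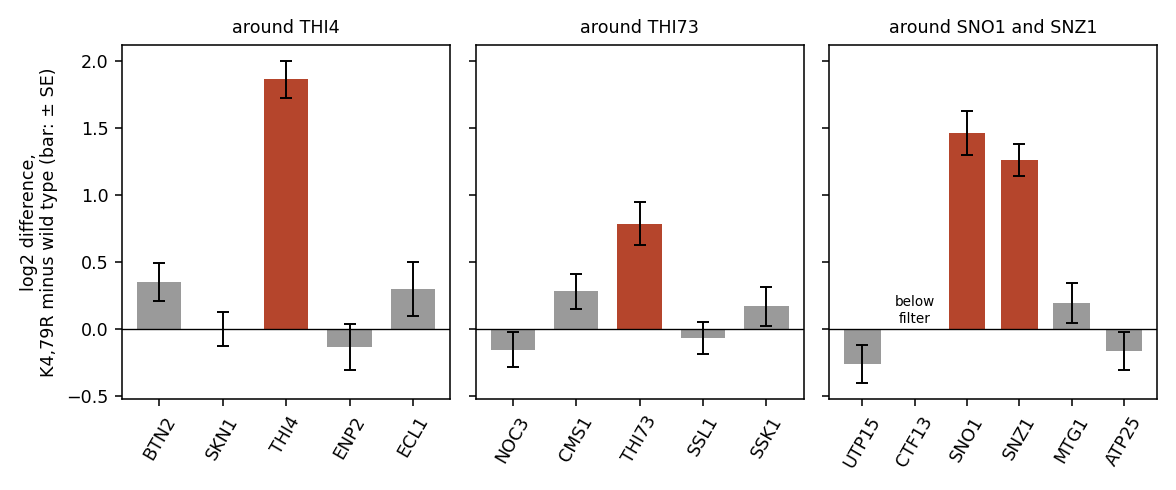
Log2 difference, K4,79R minus wild type, ± SE for THI4, THI73 and the SNO1 and SNZ1 pair (red) and the adjacent protein-coding genes in the RefSeq order (grey). The neighbours lie between -0.26 and 0.35, below every red bar.

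The nearest 2 protein-coding genes on each side were read for THI4, THI73, SNO1 and SNZ1. Of the 11 tested neighbours that are not members none was called in limma, and 1, BTN2, had an unadjusted p under 0.05, as had 1196 of the 5380 tested genes. With 2.81% of all tested genes called higher and 1.45% lower, a count of 0 of 11 lies near the share over all genes. Next to THI4, the log2 difference was 0.00 for SKN1, a glucan synthesis gene, and -0.13 for ENP2, a ribosome assembly gene. One gene further out, BTN2 and ECL1 stood at 0.35 and 0.30. Around THI73, CMS1 stood at 0.28 and SSL1, a subunit gene of the transcription factor TFIIH, at -0.06, with NOC3 at -0.15 and SSK1 at 0.17. Beyond SNZ1, MTG1 and ATP25 stood at 0.19 and -0.16, and beyond SNO1, UTP15 stood at -0.26 while CTF13 did not pass the filter on dim probe sets. In BTN2 and CMS1, of the 11, all 3 K4,79R signals were above the wild-type signals (limma adjusted p = 0.205 and 0.252). The same was so for 16.7% of all tested genes, so nothing is read from it.

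The genes with the most similar pattern over the 6 arrays were taken as those with the highest Pearson correlation of log2 values. The arrays form 2 groups, so this measure finds genes that differ between the groups and vary little within them. For THI4 they were POT1, the peroxisomal thiolase gene, YNR065C, the glycerol phosphatase gene GPP2, YCL048W-A and BNA2, a gene of NAD synthesis from tryptophan, with correlations between 0.995 and 0.997. For SNZ1 they were the heat shock gene HSP30, the cell wall gene PST1, POT1 again, the yapsin protease gene YPS7 and SRX1, which encodes sulfiredoxin, between 0.996 and 0.998. POT1 read 40.9 ± 0.80 in K4,79R cells and 18.8 ± 1.72 in wild-type cells (SD, n = 3 each). The same measure was 0.987 between SNZ1 and its partner SNO1. For THI4 it was 0.992 with SNZ1, 0.995 with SNO1 and 0.949 with THI73.

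**Figure D5:**
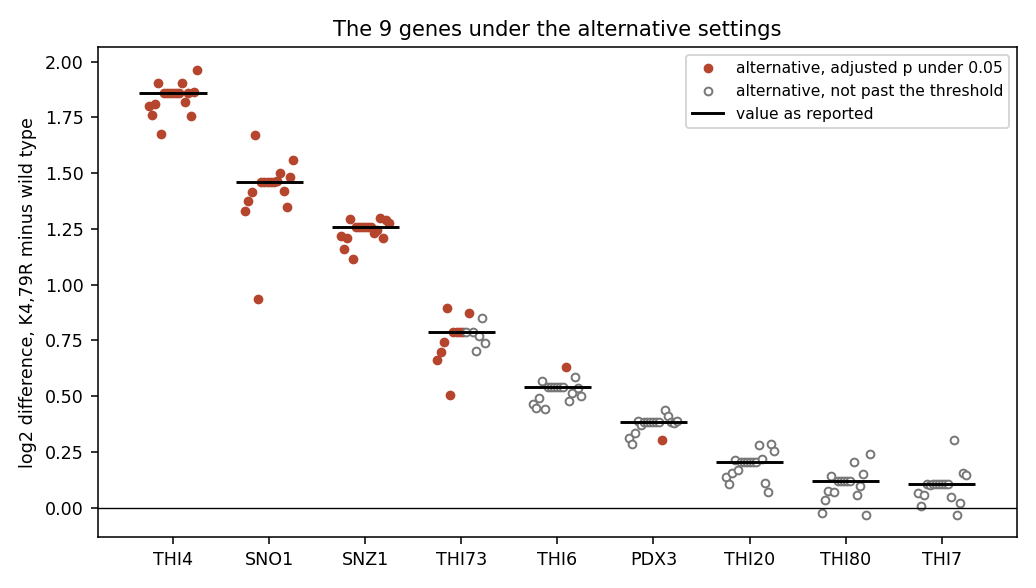
Log2 difference, K4,79R minus wild type, of the 9 genes as reported (black line) and under up to 17 alternative settings each (circles, filled where the adjusted p was under 0.05). THI4, SNO1 and SNZ1 are filled throughout, THI73 in 10 of its 16 alternatives.

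Across these settings the difference of THI4 stayed between 1.67 and 1.96, that of SNO1 between 0.94 and 1.67 and that of SNZ1 between 1.11 and 1.3, and each had an adjusted p under 0.05 in every alternative in which it was tested. SNO1 had its lowest value with an offset of 16, which weighs down low signals and put it below SNZ1. The highest adjusted p of these genes, 0.0353 for THI4, 0.0457 for SNO1 and 0.0438 for SNZ1, all came without wild-type array 2. Ordered by size, the 95% intervals of every gene and the next one overlapped, from THI4 and SNO1 down to THI80 and THI7. The number of genes called higher over the whole array was 151 against 78 lower, or 65.9% higher as deposited, and between 43.6% and 52.6% with the 3 other scalings, under which the median difference of the 9 genes was 0.45 to 0.49.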

How the data were processed

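The deposited file gives linear array intensity, with 1 value per probe set and array. MAS5 is named in the submitters' processing notes, with no version. About 20 micrograms of total RNA per sample were labelled, per the labels' protocols. Values of K4,79R arrays 1, 2 and 3, controls aside, were whole multiples of 0.1 times a constant of 0.922, 1.09 and 1.11 (within 5.52e-06 of that step), with a basis not given in the sources used here; values were used as deposited. Detection calls and promoter sequences were not used here.

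Of 9275 probe sets without controls, 6504 list 1 gene, and all 6504 were found by gene ID in the RefSeq table of assembly R64. The 20% with the lowest mean were left out, and a gene was read from its brightest probe set. log2(signal + 3.605) was fitted with limma 3.58.1 in R 4.3.3 (two-sided, eBayes with trend), with Benjamini-Hochberg adjustment over 5380 genes; "called" means an adjusted p under 0.05. The fit was tested on simulated data. The 6 arrays limit the precision. Members and lists were chosen with earlier results of these data known. Genes named are the members, called list genes, up to 4 of the brightest uncalled genes per list, neighbours and the 5 most similar genes; others are marked. Planned promoter motif searches were not run. Alternatives covered scaling, offset, filter, probe sets, variance prior, replicate block and each array left out.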

Additional observations from a re-analysis of the deposited data

How the results depend on the processing

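The number of genes called over the whole array was 229 as reported, 368 with quantile normalization, 358 with a common median, 348 with the constants divided out and 24 with the replicate number as a block. It ranged from 22 to 1123 when 1 array was left out, the latter without K4,79R array 1. Of the 9 genes, 4 were called; 2 were with the lowest 40% of probe sets left out, which removed SNO1, THI73 and THI80 from the test, and between 3 and 6 with 1 array left out, 6 without K4,79R array 1. Of the other pathway genes 3 were called higher, 0 with the replicate block, and between 1 and 12 with 1 array left out. With the block, THI73 had a limma adjusted p of 0.113, while THI4, SNZ1 and SNO1 kept their calls. In their deviations from the group means, same-numbered arrays correlated at -0.15, 0.07 and -0.02, and arrays with different numbers at -0.27 to 0.27. With 3 arrays a group these values cannot decide whether the numbers pair samples. THI80 turned to -0.024 with quantile normalization and ranged from -0.033 (without wild-type array 2) to 0.24 with 1 array left out; THI7 ranged from -0.031 (without K4,79R array 3) to 0.30. The cause was not tested. The low signals of SNO1, THI73 and THI80 limit how well their folds are known.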
